A study of Homo sapiens with 8 samples.

Results

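The genes described here are 10 core and accessory members of the polycomb repressive complexes: EZH1, EZH2, EED, SUZ12 and JARID2 of polycomb repressive complex 2 (PRC2), and BMI1, RING1, RNF2, CBX2 and CBX7 of polycomb repressive complex 1 (PRC1). They were chosen by name, for their place in the complexes, with earlier results of these data known. They are 10 of the 35238 gene symbols in the count table, and all 10 were among the 15085 genes that passed the filter on low counts. MP38 is a uveal melanoma (UM) cell line with a mutation of BAP1. All cells were cultured for 24 h in medium with 0.1% DMSO, the solvent of the drugs. The control cells received DMSO alone, and the others received 40 nM romidepsin, 40 nM quisinostat or 1200 nM mivebresib. Romidepsin and quisinostat inhibit histone deacetylases (HDAC), the enzymes that remove acetyl groups from histones, and mivebresib blocks the bromodomains by which BET proteins bind acetylated histones. Each of the 4 groups had 2 RNA sequencing libraries of 28483235 to 29359024 counts, so every value below comes from 1 cell line and 2 libraries a group.

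PRC2 places methyl groups on lysine 27 of histone H3 through either EZH2 or its paralogue EZH1, and needs EED, which reads the same mark, and SUZ12, on which the complex is built. JARID2 is an accessory subunit that brings PRC2 to its sites. PRC1 attaches ubiquitin to histone H2A through RING1 or RNF2 (the proteins RING1A and RING1B), one of which pairs with a PCGF protein such as BMI1, while a chromobox (CBX) protein reads the methyl mark of PRC2. BAP1 is the catalytic subunit of the enzyme that removes that ubiquitin again, which is why these complexes are of interest in a UM line that carries a BAP1 mutation.

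The sequences around annotated start sites are shown for the 4 members whose window held an E2F-type motif or the cyclic AMP response element, so that they can be read beside the counts. Windows of 300 bases, 250 before the start and 50 after it, came from RefSeq on GRCh38.p14, which held 12 windows for 9 of the 10 genes, CBX2 being the exception. Capitals mark an E2F-type motif (TTTGGCGC, TTTCCCGC, TTTCGCGC or TTTGCCGC, on either strand) in EZH2, SUZ12 and EZH1, and the cyclic AMP response element TGACGTCA, searched on both strands, in JARID2.
EZH2 promoter, chr7:148884242-148884541, minus strand: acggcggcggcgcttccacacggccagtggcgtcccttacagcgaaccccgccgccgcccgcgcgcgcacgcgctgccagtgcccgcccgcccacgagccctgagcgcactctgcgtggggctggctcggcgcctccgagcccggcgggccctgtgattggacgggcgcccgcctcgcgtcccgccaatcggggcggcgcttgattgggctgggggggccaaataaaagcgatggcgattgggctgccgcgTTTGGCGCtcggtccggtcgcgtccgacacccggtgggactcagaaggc
SUZ12 promoter, chr17:31936757-31937056, plus strand: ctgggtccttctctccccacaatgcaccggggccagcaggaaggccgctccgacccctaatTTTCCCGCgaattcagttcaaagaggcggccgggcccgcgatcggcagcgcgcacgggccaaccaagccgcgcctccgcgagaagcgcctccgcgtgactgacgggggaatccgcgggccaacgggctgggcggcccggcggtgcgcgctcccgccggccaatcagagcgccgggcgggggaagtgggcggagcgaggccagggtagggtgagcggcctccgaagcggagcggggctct
EZH1 promoter, chr17:42744991-42745290, minus strand: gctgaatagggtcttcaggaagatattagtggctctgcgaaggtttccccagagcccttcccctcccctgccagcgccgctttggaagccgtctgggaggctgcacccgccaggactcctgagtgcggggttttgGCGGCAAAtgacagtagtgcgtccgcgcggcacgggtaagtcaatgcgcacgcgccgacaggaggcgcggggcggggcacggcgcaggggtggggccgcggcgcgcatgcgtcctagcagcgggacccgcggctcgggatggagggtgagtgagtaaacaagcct
JARID2 promoter, chr6:15248605-15248904, plus strand: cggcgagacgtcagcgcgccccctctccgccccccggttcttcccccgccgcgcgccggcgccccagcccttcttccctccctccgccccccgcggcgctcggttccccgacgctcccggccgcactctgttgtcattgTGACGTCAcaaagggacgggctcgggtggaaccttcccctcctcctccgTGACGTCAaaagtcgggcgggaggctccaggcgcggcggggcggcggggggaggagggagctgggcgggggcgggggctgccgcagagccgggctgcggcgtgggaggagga

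An E2F-type motif stood in 3.31% of all 35116 such windows, and the cyclic AMP response element in 1.85%. Of the members, EZH2, SUZ12 and EZH1 each had 1 window with 1 E2F-type match, and the downstream of the 2 JARID2 windows had 2 matches to the cyclic AMP response element. The EZH2 window shown also had 4 matches to CCAAT on either strand, a sequence found in 34.6% of windows. The windows of SUZ12, EED and CBX7 and the upstream JARID2 window had 1 CCAAT match each. The BMI1 window that starts at position 22320849 of chromosome 10 had 1 match to the E-box CACGTG, which 7.26% of windows had. These matches describe letters only, and no binding was measured. The windows were rich in GC, with 74.7% in the EZH2 window shown and 67.0% in EZH1, against a median of 58.7% over all windows, while the single EED window had 52.3%.

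In control cells, the PRC1 genes BMI1 and RING1 had the highest level for their length, and JARID2 and CBX2 the lowest. On the scale of normalised CPM per kilobase of exon (CPM per kb), the mean levels were 51.5 ± 4.84 (SD, n = 2) for BMI1, 30.3 ± 4.08 for RING1, 18.0 ± 0.916 for SUZ12 and 11.95 ± 0.132 for EZH2. EED (8.77 ± 0.274), RNF2 (7.26 ± 1.05), CBX7 (4.18 ± 0.77) and EZH1 (3.76 ± 0.487) followed on the same scale, ahead of JARID2 (1.72 ± 0.266) and CBX2 (1.18 ± 0.111). Of the neighbours in this order, the libraries of CBX7 and EZH1 overlapped, and those of the others did not. BMI1, RING1 and SUZ12 took places 1 to 3 in that order in all 4 groups and CBX2 the last, whereas EZH1 moved from place 8 in control cells to place 5 with mivebresib, and CBX7 from place 7 to place 4 with quisinostat and place 9 with mivebresib. The SD of 2 libraries is itself a rough estimate.

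Each library's level of the 10 genes, as its count scaled to a common library size with TMM factors (normalised CPM), is given first for PRC2 and then for PRC1. Differences were tested with the quasi-likelihood test of edgeR in 1 model of all 8 libraries, and a gene was called at a Benjamini-Hochberg adjusted p under 0.05 over all genes tested. The libraries of a group came from separate wells, so the p-values rest on the spread between wells of a single line, pooled over the 4 groups. Levels are relative to the other RNAs of a library, and a change in the total RNA of a cell cannot be seen in them. Where a call is said below to hold in the alternatives, limma on the quantile-normalized table is left out: on it no member was called with any drug against control, while 3, 2 and 3 members (romidepsin, quisinostat, mivebresib) had an unadjusted p under 0.05 and 7.98%, 19.1% and 18.9% of all genes were called. The scores of that table were fitted without a logarithm, unlike the other alternatives. On the counts, DESeq2 called 5, 7 and 5 members and limma-voom 5, 7 and 6, the drugs in the same order. Each drug was set against the same 2 control libraries, whose counts differed from each other by more than those of any drug group: chi-square over the degrees of freedom came to 58.1 for that pair and to 9.52 to 9.79 for the others. The pooled spread can therefore be too small for the comparisons with control, and their p-values too low. With only the 4 libraries of a comparison fitted, 1, 6 and 5 members were called. Of all genes, 2543, 6658 and 5287 then were, against 4670, 8024 and 6970 in the main fit.

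**Figure D1:**
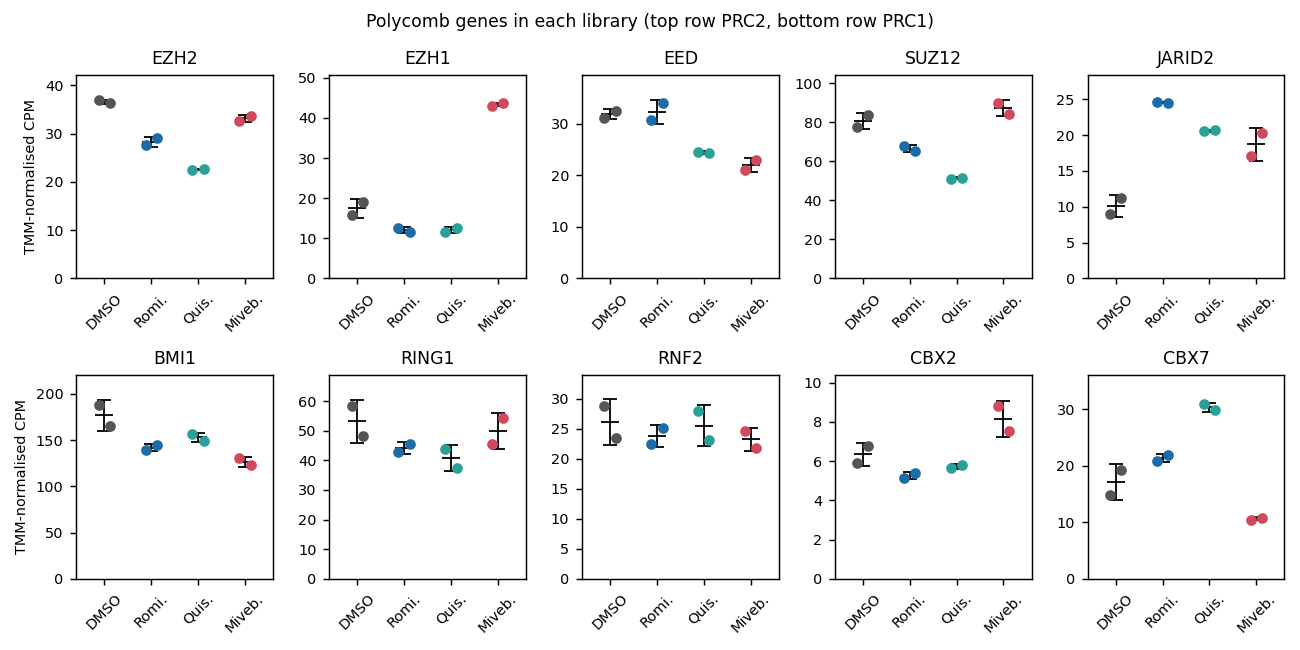
Normalised CPM (vertical axes, linear from 0, a different range for each gene) of the 5 PRC2 genes (top) and the 5 PRC1 genes (bottom) in the control (DMSO), romidepsin (Romi.), quisinostat (Quis.) and mivebresib (Miveb.) groups. Coloured points are the 2 libraries of a group, the horizontal line is their mean and the bar is ± 1 SD. EZH1 stood at 43.0 and 43.6 with mivebresib and at 19.0 or below in the other 6 libraries, and JARID2 was lowest in the 2 control libraries.

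EZH2, the PRC2 methyltransferase of dividing cells, was lower with both HDAC inhibitors. Its normalised CPM was 36.9 and 36.3 in control cells, 27.6 and 29.0 with romidepsin, 22.6 in both quisinostat libraries, and 32.7 and 33.6 with mivebresib. The 4 groups did not overlap, control being highest and quisinostat lowest. EZH2 fell by 0.70 on the log2 scale with quisinostat (SE 0.0759, edgeR adjusted p = 0.000121) and by 0.37 with romidepsin (SE 0.0754, edgeR adjusted p = 0.00714). The mivebresib difference of -0.14 was not called (95% interval -0.31 to 0.029, edgeR adjusted p = 0.153). The romidepsin call was lost without romidepsin replicate 1 and when only the 4 libraries of that comparison were fitted, with adjusted p reaching 0.0737.

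The level of EZH2 lay beside a wider fall of proliferation genes. Of 20 listed proliferation genes, all 20 were lower and called with romidepsin and with quisinostat, and 15 with mivebresib. Of all genes tested, 15.8%, 25.1% and 24.1% were called lower with romidepsin, quisinostat and mivebresib. The list was chosen with earlier results of these data known. The summed normalised CPM of the 20 genes was 2078 to 2223 in control cells, 1164 to 1165 with romidepsin, 799 to 806 with quisinostat and 1507 to 1526 with mivebresib. The order of the groups was the same as for EZH2, and the part of these genes in the EZH2 result was not tested.

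EZH1, the paralogue of EZH2 known from cells that divide little, went opposite ways with the 2 kinds of drug. Its libraries had normalised CPM of 15.8 and 19.0 in control cells, 12.7 and 11.5 with romidepsin, 11.5 and 12.7 with quisinostat, and 43.0 and 43.6 with mivebresib. Every mivebresib library was above every other library, and every library of the HDAC inhibitors was below both controls. EZH1 rose 2.48-fold with mivebresib (log2 1.31, SE 0.110, edgeR adjusted p = 3.88e-05), the largest rise among the 10 genes in that comparison. It fell by 0.53 on the log2 scale with romidepsin (SE 0.115, edgeR adjusted p = 0.00943) and by 0.53 with quisinostat (SE 0.114, edgeR adjusted p = 0.00465). The mivebresib and quisinostat calls held in every alternative at the same threshold other than the quantile-normalized table, while the romidepsin call was lost without romidepsin replicate 2 and with only 4 libraries fitted, with adjusted p up to 0.0747.

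SUZ12, the scaffold subunit, was lower with quisinostat and differed little with mivebresib. The libraries showed normalised CPM of 77.8 and 83.6 in control cells, 67.8 and 65.4 with romidepsin, 51.0 and 51.7 with quisinostat, and 90.1 and 84.4 with mivebresib. The libraries of both HDAC inhibitors lay below the controls, and those of mivebresib lay just above them. SUZ12 fell by 0.65 on the log2 scale with quisinostat (SE 0.0783, edgeR adjusted p = 0.000201) and by 0.28 with romidepsin (SE 0.0778, edgeR adjusted p = 0.0279). The mivebresib difference was 0.11 (95% interval -0.064 to 0.29, edgeR adjusted p = 0.266). The romidepsin call depended on the settings: it was lost with library size alone, with upper-quartile factors and without either romidepsin library, among others, and adjusted p reached 0.152.

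EED, the subunit that reads the PRC2 mark, was lower with quisinostat and mivebresib. EED stood at a normalised CPM of 31.1 and 32.5 in control cells, 30.7 and 34.0 with romidepsin, 24.6 and 24.3 with quisinostat, and 21.1 and 23.1 with mivebresib. Only the romidepsin libraries overlapped the controls. The mivebresib fall of EED was -0.53 in log2 (SE 0.0898, edgeR adjusted p = 0.00159) and the quisinostat fall -0.38 (SE 0.0889, edgeR adjusted p = 0.00674), and the romidepsin difference was 0.022 (95% interval -0.18 to 0.22, edgeR adjusted p = 0.870). With library size alone in place of TMM factors, EED was no longer called with quisinostat (log2 between -0.42 and -0.17 over the alternatives, adjusted p up to 0.154).

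JARID2, the accessory subunit, was higher with all 3 drugs. Its normalised CPM was 9.03 and 11.3 in control cells, 24.6 and 24.5 with romidepsin, 20.5 and 20.7 with quisinostat, and 17.1 and 20.3 with mivebresib. No treated library overlapped a control. The rise was 2.42-fold with romidepsin (log2 1.28, SE 0.126, edgeR adjusted p = 0.000264), 2.03-fold with quisinostat (log2 1.02, SE 0.127, edgeR adjusted p = 0.000238) and 1.85-fold with mivebresib (log2 0.88, SE 0.128, edgeR adjusted p = 0.000675). All 3 calls held in the other alternatives at the same threshold, without either control library too, but not on the quantile-normalized table.

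BMI1, the most abundant member and the PCGF partner of RING1 and RNF2, was lower with mivebresib. Its normalised CPM was 188 and 165 in control cells, 139 and 144 with romidepsin, 157 and 149 with quisinostat, and 130 and 123 with mivebresib. All 6 treated libraries were below both controls, the quisinostat libraries being the nearest. With mivebresib BMI1 changed by -0.48 in log2 (SE 0.0901, edgeR adjusted p = 0.0027) and with romidepsin by -0.32 (SE 0.0898, edgeR adjusted p = 0.0287). The quisinostat difference of -0.21 was not called (95% interval -0.41 to -0.0025, edgeR adjusted p = 0.0817). The romidepsin call was lost in several alternatives, among them library size alone and the fits without control replicate 1 or without either romidepsin library, with adjusted p up to 0.179. BMI1 shares exons with the read-through gene COMMD3-BMI1, listed separately with 108 to 252 counts a library against 3416 or more for BMI1.

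Of RING1 and RNF2, the alternative ubiquitin ligases of PRC1, RNF2 was not called with any drug and RING1 with quisinostat alone. The normalised CPM of RING1 was 58.2 and 48.1 in control cells, 42.7 and 45.6 with romidepsin, 43.9 and 37.6 with quisinostat, and 45.6 and 54.3 with mivebresib. That of RNF2 was 28.8 and 23.5 in control cells, 22.5 and 25.1 with romidepsin, 28.0 and 23.2 with quisinostat, and 24.7 and 21.9 with mivebresib. RNF2 overlapped the controls in all 3 drug groups, and RING1 overlapped them with mivebresib. RING1 fell by 0.38 on the log2 scale with quisinostat (SE 0.129, edgeR adjusted p = 0.0337), a call lost under other scalings and without control replicate 1 or quisinostat replicate 2, with adjusted p up to 0.335. RING1 was not called with romidepsin (-0.27, 95% interval -0.56 to 0.025, edgeR adjusted p = 0.145) or mivebresib (-0.090, -0.38 to 0.20, adjusted p = 0.596). RNF2 was not called with romidepsin (-0.13, 95% interval -0.45 to 0.18, edgeR adjusted p = 0.480), quisinostat (-0.034, -0.34 to 0.27, adjusted p = 0.847) or mivebresib (-0.17, -0.48 to 0.14, adjusted p = 0.339). These intervals leave room for differences of up to about the size called for other members.

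CBX7 and CBX2, chromobox readers of the PRC2 mark, differed in their response. The normalised CPM of CBX7 was 14.8 and 19.3 in control cells, 20.8 and 21.8 with romidepsin, 30.9 and 29.7 with quisinostat, and 10.4 and 10.8 with mivebresib. The 4 groups did not overlap, quisinostat being highest and mivebresib lowest. CBX7 rose 1.78-fold with quisinostat (log2 0.83, SE 0.121, edgeR adjusted p = 0.000581) and fell with mivebresib (log2 -0.69, SE 0.128, edgeR adjusted p = 0.00255), and both calls held in the alternatives at the same threshold apart from the quantile-normalized table. With romidepsin the difference of 0.32 was not called (95% interval 0.042 to 0.60, edgeR adjusted p = 0.0776), although it was under library size alone, upper-quartile factors and without control replicate 2, among others.

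CBX2 had the lowest counts of the 10 genes. Its normalised CPM was 5.92 and 6.76 in control cells, 5.15 and 5.37 with romidepsin, 5.63 and 5.80 with quisinostat, and 8.81 and 7.52 with mivebresib. Both mivebresib libraries were above the controls and all 4 libraries of the HDAC inhibitors below them. No drug differed from control at the threshold: the log2 difference was 0.37 with mivebresib (95% interval 0.061 to 0.67, edgeR adjusted p = 0.0519), -0.27 with romidepsin (-0.58 to 0.047, adjusted p = 0.171) and -0.15 with quisinostat (-0.46 to 0.16, adjusted p = 0.383). The mivebresib difference passed the threshold under library size alone, upper-quartile factors and limma-voom, among others.

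**Figure D2:**
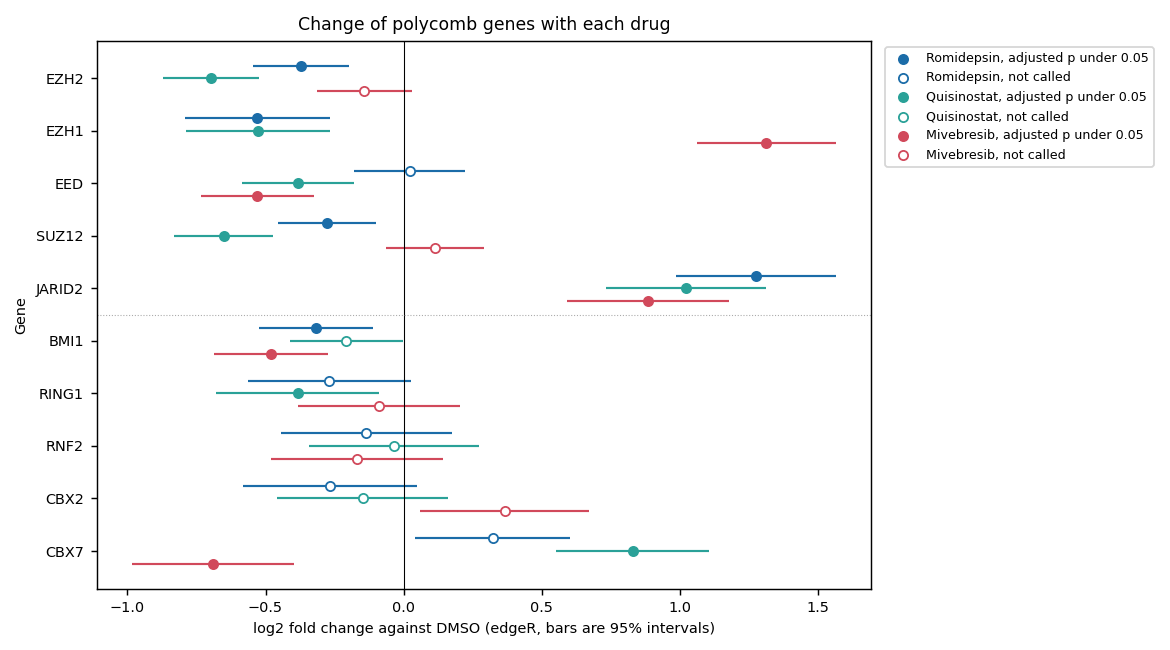
log2 fold change against control (horizontal axis) of the 10 genes (vertical axis, PRC2 above the dotted line and PRC1 below) with romidepsin, quisinostat and mivebresib. Points are edgeR estimates from 2 libraries a group, bars are 95% intervals, and filled points are called at an adjusted p under 0.05. JARID2 lies to the right for all 3 drugs, while EZH1 and CBX7 are called to opposite sides, EZH1 at 1.31 with mivebresib against -0.53 with both HDAC inhibitors and CBX7 at 0.83 with quisinostat against -0.69 with mivebresib.

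Counted over the 10 genes, romidepsin had 5 called, 1 higher and 4 lower, where 31% of all genes tested were called. Quisinostat had 7 called, 2 higher and 5 lower, against 53.2% of all genes, and mivebresib had 5 called, 2 higher and 3 lower, against 46.2%. The background was so high that the number of called members says little for the set. All genes were called lower in 15.8%, 25.1% and 24.1% of cases with romidepsin, quisinostat and mivebresib, and higher in 15.2%, 28% and 22.2%. The median log2 difference of the 10 genes was -0.27 with romidepsin, -0.29 with quisinostat and -0.12 with mivebresib, beside medians of -0.012, -0.0036 and 0.0067 over all genes tested. No member was called with a log2 fold change beyond 1.5, where 4.08%, 12.2% and 8.32% of all genes were. Scaling moved the split: with library size alone the higher and lower calls numbered 2 and 2 (romidepsin), 2 and 3 (quisinostat) and 3 and 3 (mivebresib), as the median of all genes then stood at 0.196 with quisinostat.

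Setting the drugs against each other tested which of these responses differed. Mivebresib differed from both HDAC inhibitors most in EZH1, which was higher by 1.84 on the log2 scale than with romidepsin (SE 0.113, edgeR adjusted p = 7.68e-06) and by 1.84 than with quisinostat (SE 0.112, edgeR adjusted p = 4.67e-06). CBX7 went the other way, at -1.01 against romidepsin (SE 0.127, edgeR adjusted p = 0.000291) and -1.52 against quisinostat (SE 0.126, edgeR adjusted p = 2.18e-05). SUZ12 and CBX2 were also higher with mivebresib than with either HDAC inhibitor. The SUZ12 difference was 0.39 against romidepsin (edgeR adjusted p = 0.00341) and 0.76 against quisinostat (edgeR adjusted p = 6.86e-05). The CBX2 difference was 0.63 against romidepsin (edgeR adjusted p = 0.00486) and 0.51 against quisinostat (edgeR adjusted p = 0.01), the latter lost with library size alone and without quisinostat replicate 1 or mivebresib replicate 1.

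EZH2 was higher with mivebresib than with quisinostat by 0.55 (SE 0.0761, edgeR adjusted p = 0.000354), and the difference from romidepsin of 0.23 (edgeR adjusted p = 0.0343) was lost in 11 alternatives, without either library of the 2 groups among them. EED was lower with mivebresib than with romidepsin by a log2 difference of -0.55 (edgeR adjusted p = 0.00117), and its difference from quisinostat of -0.15 was not called (95% interval -0.35 to 0.058, edgeR adjusted p = 0.190). JARID2 was lower with mivebresib than with romidepsin at -0.39 (edgeR adjusted p = 0.0264), a call lost without either romidepsin library or without mivebresib replicate 1. BMI1 was lower with mivebresib than with quisinostat at -0.27 (edgeR adjusted p = 0.0291), and this call was lost in 7 alternatives, without either library of the 2 groups among them. In all, 7 of the 10 genes differed between mivebresib and romidepsin, 4 higher and 3 lower, where 48.9% of all genes did (23.7% higher, 25.2% lower). Between mivebresib and quisinostat, 6 differed, 4 higher and 2 lower, where 57.7% did (26.2% higher, 31.5% lower).

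The HDAC inhibitors, given at the same dose of 40 nM, differed from each other in 4 members, 1 higher and 3 lower with quisinostat, against 35.6% of all genes (21% higher, 14.6% lower). SUZ12 was lower with quisinostat than with romidepsin at -0.37 (SE 0.0783, edgeR adjusted p = 0.00689), EED at -0.40 (SE 0.0887, edgeR adjusted p = 0.00869) and EZH2 at -0.32 (SE 0.0763, edgeR adjusted p = 0.0117), while CBX7 was higher at 0.51 (SE 0.119, edgeR adjusted p = 0.0116). Each of these calls rested on few libraries: that of CBX7 was lost without any 1 of the 4 libraries compared, that of EZH2 without either quisinostat library or romidepsin replicate 2, that of SUZ12 without quisinostat replicate 1 or romidepsin replicate 1, and that of EED without romidepsin replicate 2. EZH1 had nearly the same level with both, and its difference of 0.0013 had a 95% interval of -0.26 to 0.27. An equal dose of 2 drugs is not an equal degree of inhibition, which was not measured here.

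The balance of EZH1 and EZH2 moved with mivebresib, and that of CBX7 and CBX2 with all 3 drugs. Of the EZH1 and EZH2 level per kb, EZH1 took 22.1% and 25.7% in the control libraries, 23.3% and 20.7% with romidepsin, 25.1% and 27.0% with quisinostat, and 46.4% and 46.1% with mivebresib. Near parity was thus seen with mivebresib alone among these 4 groups, where EZH1 had 1.31 and 1.30 counts for each EZH2 count, against 0.395 to 0.561 in the other 6 libraries. The count ratio of CBX7 to CBX2 was 2.51 and 2.85 in control cells, 4.04 and 4.06 with romidepsin, 5.48 and 5.13 with quisinostat, and 1.18 and 1.43 with mivebresib, with no overlap between the groups.

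BMI1 took 49.9% to 53.6% of the level per kb of the 6 PCGF genes over all 8 libraries. Among its paralogues, PCGF5 took 9.97% ± 0.14 of that level in control cells, 13.0% ± 0.215 with romidepsin, 16.2% ± 0.069 with quisinostat and 13.9% ± 0.526 with mivebresib (SD, n = 2). PCGF3 went from 6.14% ± 0.251 in control cells to 9.06% ± 0.884 with mivebresib (SD, n = 2). A share also moves with the other genes of its group. The normalised CPM of PCGF5 was 71.0 ± 7.59 in control cells, 75.3 ± 3.04 with romidepsin, 104.0 ± 4.04 with quisinostat and 74.4 ± 0.218 with mivebresib. That of PCGF3 was 38.4 ± 3.1 in control cells and 42.6 ± 2.7 with mivebresib (SD, n = 2). RING1 took 80.6% and 80.8% of the RING1 and RNF2 level in control cells, 79.6% and 78.9% with romidepsin, 76.4% and 77.0% with quisinostat, and 79.2% and 83.6% with mivebresib, so that the quisinostat libraries were the lowest and the mivebresib libraries spanned the controls. With 2 libraries against 2, an exact permutation test of a share cannot reach the threshold, and the shares are given as values.

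**Figure D3:**
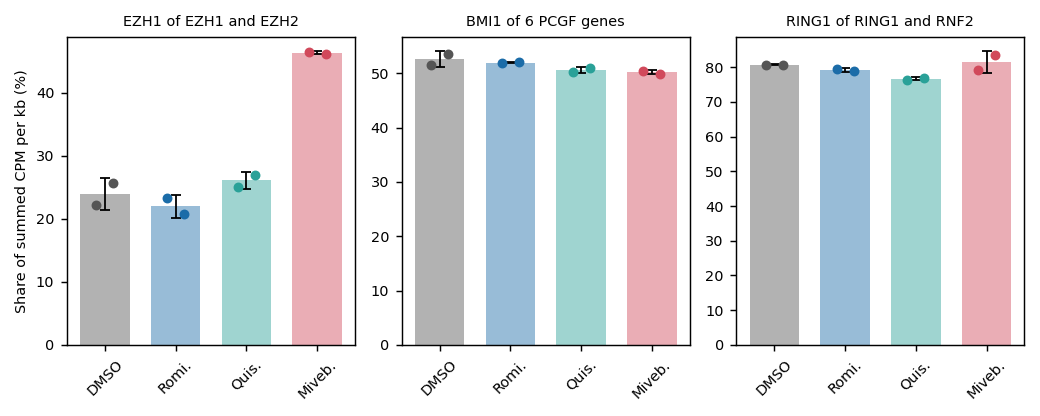
Share (vertical axes, percent of the summed normalised CPM per kb, from 0) that 1 gene takes of its paralogue group in the control (DMSO), romidepsin (Romi.), quisinostat (Quis.) and mivebresib (Miveb.) groups; bars are means of 2 libraries, points the libraries, error lines ± 1 SD. The share of EZH1 is 46.1% or more with mivebresib and at most 27.0% elsewhere, that of BMI1 lies between 49.9% and 53.6%, and that of RING1 between 76.4% and 83.6%.

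Among the other PRC2 subunits, PHF19, an accessory subunit that binds methylated lysine 36 of histone H3, was lower with each drug. Control cells had 44.2 ± 4.92 normalised CPM of it, romidepsin-treated cells 17.5 ± 0.861, quisinostat-treated cells 10.2 ± 0.07 and mivebresib-treated cells 11.5 ± 2.09 (SD, n = 2). The log2 differences were -1.34, -2.12 and -1.95 (edgeR). Of 8 other PRC2 genes tested, 1 was higher and 3 lower with romidepsin, 0 and 5 with quisinostat, and 1 and 3 with mivebresib, with medians of -0.13, -0.30 and -0.070. The quisinostat split was 0 and 3 with library size alone and with upper-quartile factors. Under TMM factors, 15.2%, 28% and 22.2% of all genes were called higher and 15.8%, 25.1% and 24.1% lower, the drugs in the same order. The histone-binding subunit RBBP4 fell by 0.41 with romidepsin and by 0.72 with quisinostat on the log2 scale, and the cofactor AEBP2 fell by 0.53 with quisinostat and by 0.62 with mivebresib. The romidepsin call of RBBP4 was lost without romidepsin replicate 1. PHF1, a relative of PHF19, fell by 0.57 with romidepsin and by 0.52 with mivebresib. LCOR was the called gene that rose with mivebresib (0.37), and MTF2 the one that rose with romidepsin (0.35, lost in 12 alternatives).

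Of the 24 other PRC1 genes, 4 were higher and 5 lower with romidepsin, 3 and 11 with quisinostat, and 4 and 8 with mivebresib, with medians of -0.12, -0.28 and -0.059. The quisinostat split was 5 and 4 with library size alone and 4 and 7 with upper-quartile factors. Under TMM factors, all genes were called higher in 15.2%, 28% and 22.2% of cases and lower in 15.8%, 25.1% and 24.1%, the drugs in the same order. PHC1, a polyhomeotic subunit that lets PRC1 form larger assemblies, changed in both directions as CBX7 did. Its mean level was 17.3 ± 0.644 normalised CPM in control cells, 23.4 ± 0.726 with romidepsin, 36.1 ± 0.681 with quisinostat and 7.44 ± 1.63 with mivebresib (SD, n = 2), for log2 differences of 0.44, 1.06 and -1.21 (edgeR), the first not called without either romidepsin or either quisinostat library. KDM2B, which brings a PRC1 variant to unmethylated CpG islands, fell by 0.96 with romidepsin and by 0.76 with quisinostat. L3MBTL2 fell by 0.67 with romidepsin, by 0.63 with quisinostat and by 0.85 with mivebresib. SCMH1 fell by 1.44 with mivebresib, while SCML2 (0.77) and SCML1 (0.58) rose, SCML2 not being called without mivebresib replicate 2.

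Enzymes and cofactors that oppose polycomb or act with BAP1 formed a list of 12 tested genes, of which 2 were higher and 2 lower with romidepsin, 1 and 7 with quisinostat, and 3 and 2 with mivebresib. With library size alone the quisinostat split was 3 and 3. Beside the TMM counts, 15.2%, 28% and 22.2% of all genes were called higher and 15.8%, 25.1% and 24.1% lower, the drugs in the same order. BAP1 itself stood at 82.9 ± 1.00 normalised CPM in control cells, 78.5 ± 0.457 with romidepsin, 92.3 ± 3.91 with quisinostat and 74.6 ± 5.12 with mivebresib (SD, n = 2). It was not called with any drug, at log2 differences of -0.078, 0.15 and -0.15, although the quisinostat difference passed the threshold in 4 alternatives, library size alone and upper-quartile factors among them. Counts do not show whether the BAP1 protein was functional. HCFC1, a large partner of BAP1, fell by 1.24 with romidepsin and by 1.23 with quisinostat on the log2 scale. OGT, the sugar transferase that acts on HCFC1, rose by 0.94 with mivebresib, and KDM1B, a demethylase of lysine 4 of histone H3, by 0.34, 0.44 and 0.95 with romidepsin, quisinostat and mivebresib. The romidepsin call of KDM1B was lost without romidepsin replicate 2.

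Genes known as polycomb targets in other cells were followed as a readout of the mark's usual sites. Of 38 listed, 31 passed the filter, and 14 were higher and 3 lower with romidepsin, 19 and 1 with quisinostat, and 6 and 7 with mivebresib. Beside them stand all genes, called higher in 15.2%, 28% and 22.2% of cases and lower in 15.8%, 25.1% and 24.1%, the drugs in the same order. Some targets, such as FOXA2 and WT1 with 0 counts in both control libraries (named after their values were seen), passed the filter only through drug groups in which they were high, so the filter itself sets part of the higher calls and nothing is read from these counts. OLIG2, a factor of neural precursors, had 19 and 6 counts in the control libraries, 73 and 92 with romidepsin, 148 and 160 with quisinostat, and 9 and 5 with mivebresib. OLIG2 too passed the filter only through the HDAC inhibitor groups, in which it was high, so its calls are not read as a result. Its log2 difference was 2.65 with romidepsin and 3.43 with quisinostat, and 3.69 and 4.45 without control replicate 1. In the deposited log CPM values it was 1.44 and 2.17. The homeobox gene DLX5 fell by 2.90 with mivebresib, from 132 and 95 counts to 18 and 12, and NKX2-2 fell by 2.21 and EN1 by 1.61. Among the targets called higher with mivebresib, GRIK2 rose by 1.46, from 56 and 60 counts to 138 and 179. In the log CPM values, DLX5 fell by 1.67 and NKX2-2 by 1.34. The cell cycle inhibitor CDKN2B, beside CDKN2A in a locus that BMI1 represses in many cells, rose with all 3 drugs, by 0.69 on the log2 scale with romidepsin (edgeR adjusted p = 0.00267), by 0.79 with quisinostat (edgeR adjusted p = 0.000481) and by 1.11 with mivebresib (edgeR adjusted p = 9.95e-05), from 12.5 ± 0.0349 normalised CPM in control cells to 26.9 ± 3.65 with mivebresib. CDKN2A, named after its values were seen, rose by 0.96 with romidepsin and by 0.72 with quisinostat and was at 0.18 with mivebresib, which was not called (95% interval -0.11 to 0.48). Histone methylation was not measured, and no target was tied to a complex here.

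**Figure D4:**
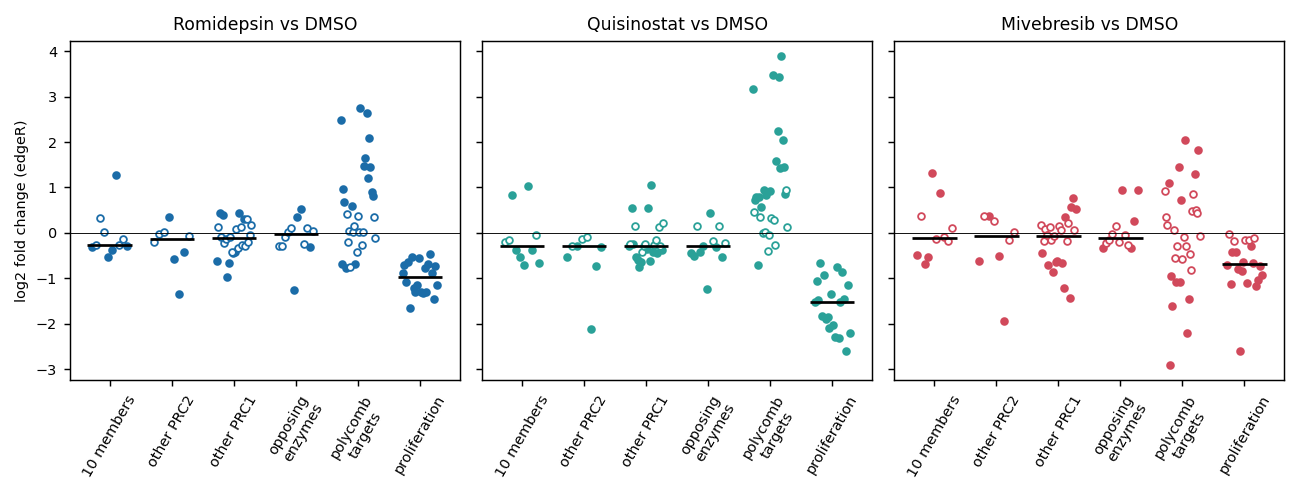
log2 fold change against control (vertical axis, edgeR, 2 libraries a group) of the 10 members, 8 other PRC2 genes, 24 other PRC1 genes, 12 opposing enzymes, polycomb targets and 20 proliferation genes with romidepsin, quisinostat and mivebresib. Each point is a gene, filled where the adjusted p is under 0.05, and lines are medians, not drawn for the targets; each panel leaves out 2 of the 31 targets, whose counts never exceeded 3 in 1 of the groups. Proliferation genes lie lowest as a list. Targets are spread most widely, but several have few counts and some passed the filter only through drug groups in which they were high. Their spread is therefore not read as a result.

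The cell label was checked against marker genes. All 8 melanocytic markers had counts in both control libraries, with a summed normalised CPM of 4232 to 5481. TYRP1 made up most of that sum, at 2984.5 and 4116, while DCT had only 4 and 1 counts and did not pass the filter. The T cell gene CD3E and the endothelial gene CDH5 were at 0 in all 8 libraries. The 6 leukocyte markers, CD3E among them, summed to 66.1 to 83.3 in control cells. Nearly all of that was CD68, at 65.8 and 83.0. The 5 epithelial markers summed to 4.71 to 5.07 in control cells. The epithelial sum was 7.52 to 8.95 with romidepsin, 11.4 to 11.7 with quisinostat and 6.55 to 6.58 with mivebresib, and the sum of 8 fibroblast and endothelial markers went from 14.3 to 22.2 in control cells to 20.6 to 25.1, 35.4 to 36.0 and 8.52 to 11.0. The part of these markers in the polycomb results was not tested. Melanocytic markers were called lower for 5 of 7 tested genes with mivebresib, 3 with quisinostat and 1 with romidepsin. Of all genes, 24.1%, 25.1% and 15.8% were called lower, the drugs in that order. The sum of the melanocytic markers, again mostly TYRP1, was 3706 to 3782 with mivebresib, 3595 to 4137 with quisinostat and 4786 to 5068 with romidepsin.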

How the data were processed

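Bulk RNA sequencing of MP38 cells was analysed from 3 tables of 8 libraries. The authors deposited counts per gene symbol without normalization, a table of log10 values that equals log10(CPM + 1) of those counts, and a quantile-normalized score, deposited by the authors, whose scale is not named. The submitters' processing notes name the build hg38; the aligner and annotation, and whether counting used strand, are not given in the sources used here.

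The test was the quasi-likelihood test of edgeR 4.0.16 (R 4.3.3) on the deposited counts: TMM factors, filterByExpr by group, 1 model of all 8 libraries with group as the only term, and Benjamini-Hochberg adjustment over 15085 genes. The biological coefficient of variation was 0.0938. Total counts of 28483235 to 29359024 make 3 counts worth 0.095 to 0.110 normalised CPM. The test was first run on simulated data. Exon lengths and overlaps came from GENCODE 29 on GRCh38 and promoters from RefSeq. DESeq2 1.42.0, limma 3.58.1 (voom, and the log10 and score tables), other scalings, filters and thresholds, 4 libraries alone, a replicate block and leaving out each library were alternatives. Those for other listed genes were added after the data were seen. The score table was planned as log2 values, so it was used for calls only. Its scores summed to 0.9955 to 1.001 in each library, as shares of a library would. Limma was run on them without a logarithm, so a lost call there is not a test on log values.

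The members and gene lists were chosen with earlier results of these data known, and lists are described by counts and medians without a list test. From each of the lists of other PRC2 genes, other PRC1 genes, opposing enzymes and targets, up to 3 called genes that rose most and 3 that fell most with each drug may be named, if their mean log2 CPM was 0 or higher, and BAP1 always; part of them is given.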

Additional observations from a re-analysis of the deposited data

How the results depend on the processing

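Between the 2 libraries of a group, chi-square over the degrees of freedom for the 10 members was 1.47 with romidepsin, 2.82 with quisinostat, 5.61 with mivebresib and 12.3 in control cells, where counting error alone gives about 1. Counting error weighs most for CBX2, with 150 to 241 counts a library. Of the member log2 differences under settings other than leaving out a library, 487 kept their direction and side of the threshold, 28 lost and 13 gained a call, and 12 changed sign; with a library left out these were 414, 41, 10 and 15. Limma on the quantile-normalized table is not part of these tallies. When a library is left out, the one that remains is assumed to vary like the other groups. The causes were not tested.

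The number of called members (5, 7 and 5 with romidepsin, quisinostat and mivebresib, 4 for quisinostat against romidepsin, 7 and 6 for mivebresib against romidepsin and quisinostat) was 0, 0, 0, 0, 1 and 2 with a log2 fold change beyond 1.5, and 0, 0, 0, 0, 1 and 3 with limma on the quantile-normalized table, where 3, 2, 3, 2, 2 and 4 had an unadjusted p under 0.05; DESeq2 called 5, 7, 5, 4, 6 and 6 and limma-voom 5, 7, 6, 4, 7 and 6. At an adjusted p under 0.01 it was 3 for romidepsin and 2 for quisinostat against romidepsin, with only 4 libraries 1 for romidepsin, and for quisinostat against romidepsin 2 on the log CPM table. Leaving out a library gave 2 to 7, 6 to 8, 5 to 6, 1 to 5, 5 to 8 and 4 to 7. Without romidepsin replicate 1 or 2 the romidepsin count was 2, without quisinostat replicate 1 or 2 it was 3, and quisinostat against romidepsin had 1 without quisinostat replicate 1 or romidepsin replicate 2.

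The labels state no shared batch, and the replicate numbers were not taken as pairs, since correlations of same-numbered deviations were not all above 0.1: they were 0.36, 0.32 and 0.18 among control, quisinostat and mivebresib and -0.41, -0.23 and -0.18 for those groups with romidepsin. Whether the numbers mark a shared batch for some of the groups was not tested. With the replicate block, 5, 7, 5, 4, 7 and 6 members were called.

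Sign changes concerned members, and BAP1, that were not called. RNF2 with quisinostat was 0.16 with library size alone, 0.095 with upper-quartile factors, 0.16 on the log CPM table, 0.060 at a mean CPM of at least 5, and -0.18 to 0.12 with a library left out. CBX2 with quisinostat was 0.052 with library size alone and 0.046 on the log CPM table. EZH1 in quisinostat against romidepsin was -0.021 with DESeq2, -0.012 without a filter, -0.038 with 4 libraries, -0.0012 with the block, and -0.11 to 0.069 with a library left out. RING1 in that comparison was 0.013 with library size alone and 0.0092 on the log CPM table. BAP1 with romidepsin was 0.0061 with upper-quartile factors. With a library left out, EED with romidepsin ran from -0.054 to 0.092, RNF2 with romidepsin from -0.28 to 0.044, RING1 with mivebresib from -0.22 to 0.054, RNF2 in quisinostat against romidepsin from -0.057 to 0.19, and RNF2 in mivebresib against romidepsin from -0.13 to 0.050.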
